A study of Mus musculus with 43 samples.

Results

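The 8 genes *Hmgcs1*, *Idi1*, *Fdps*, *Fdft1*, *Sqle*, *Lss*, *Insig1* and *Srebf2*, which stand for cholesterol synthesis and its control by the transcription factor SREBP2, were taken by gene symbol from a table of reads counted on 54532 mouse genes. All 8 were found, and all 8 were among the 18197 genes that passed a filter on low counts. The table holds 43 retinal libraries of C57BL/6J mice. Each library was a pool of 2 retinas from different animals, and every animal had received laser lesions at 9 weeks of age that induce choroidal neovascularization (CNV). SCFA-treated animals drank water with sodium acetate (67.5 mM), sodium propionate (40 mM) and sodium butyrate (25 mM) from 3 weeks before the laser until tissue was taken, while control animals had the laser only. The g/L values beside these mM values do not match for propionate and butyrate, so these doses are uncertain. Retinas were taken 3, 7 or 14 days after the laser (dpl), and sex, treatment and day gave 12 groups of 3 to 5 libraries, assigned from the sample titles. The treatment field of the labels reads control for every sample, against the titles, so each SCFA comparison rests on the titles. All animals were lasered, so no value here compares injured with uninjured retina.

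Cholesterol is made from acetyl-CoA through mevalonate, the isoprenoid diphosphates, squalene and lanosterol. When sterols run low in the endoplasmic reticulum, the escort protein SCAP carries the SREBP precursors to the Golgi, proteases release their active part, and this part switches on the genes of the pathway. INSIG proteins hold SCAP back when sterols are plentiful. The neural retina makes part of its own cholesterol.

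Libraries held 14830000 to 21510000 counts, with a median of 17680000. Values below are CPM, the usual depth-scaled counts, on library sizes adjusted by the TMM method, and a call is an adjusted p under 0.1 in edgeR's quasi-likelihood test, the study's limit. The columns of the table form a first run of 31 and a second run of 12 libraries, and what separates them was not given. Male control and female control at 7 dpl, both male groups at 14 dpl and female control at 3 dpl lie wholly in the first run. The run was kept as a block in every comparison. Rod genes marked every library as retina, with 49990 to 103200 summed CPM of 8 rod genes. 2 libraries stood apart. Female SCFA replicate 2 at 3 dpl carried 251900 CPM of 10 lens genes against at most 678 CPM in the other 42 libraries, and female control replicate 2 at 7 dpl was the only 1 of 22 libraries labelled female with more than 3 counts of Y-linked genes. Results that change with either library are given with and without it. In bulk retina, fewer cells of a type and less RNA per cell cannot be told apart.

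The upstream sequences of 3 of the genes are shown because the 8 are named for their shared regulator. RefSeq promoter entries (GRCm38.p6) were matched for 5 of the 8 genes. They are printed 5′ to 3′ on the plus strand from 250 bases before the RefSeq start up to that start or to the earlier start in GENCODE M21. Capitals mark matches, on either strand, to the core of a sterol regulatory element (TCACNCCA), a CCAAT box (CCAAT, here read as ATTGG) and an E-box (CACGTG). The *Hmgcs1* window is chr13:119690101-119690350, that of *Srebf2* is chr15:82147019-82147180 and that of *Insig1* is chr5:28071162-28071362.
Hmgcs1: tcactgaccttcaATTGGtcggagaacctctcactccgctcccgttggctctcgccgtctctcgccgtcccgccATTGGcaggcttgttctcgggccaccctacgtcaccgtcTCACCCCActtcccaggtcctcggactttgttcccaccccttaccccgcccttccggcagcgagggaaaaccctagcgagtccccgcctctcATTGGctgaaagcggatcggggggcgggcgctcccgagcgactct
Srebf2: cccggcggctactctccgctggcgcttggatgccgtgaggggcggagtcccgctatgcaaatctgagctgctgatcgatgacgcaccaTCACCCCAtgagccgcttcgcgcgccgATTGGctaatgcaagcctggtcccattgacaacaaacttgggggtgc
Insig1: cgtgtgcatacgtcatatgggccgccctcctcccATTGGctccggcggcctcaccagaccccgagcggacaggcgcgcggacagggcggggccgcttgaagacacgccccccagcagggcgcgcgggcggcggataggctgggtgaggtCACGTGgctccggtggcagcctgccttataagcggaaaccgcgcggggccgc
Over the full 250 bases, the sterol regulatory element core was found in *Hmgcs1* and *Srebf2*, 2 of the 5 genes, and in 3.67% of all 32851 promoter entries. A CCAAT box was found in all 5 of the genes, which included *Idi1* and *Lss*, and in 33.8% of all entries. The E-box was found in *Insig1* alone of the 5, and in 6.02% of all entries. No 2 matches overlapped in the sequences printed. A match is a string of letters in a window, and binding was not measured.

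*Hmgcs1*, the cytosolic synthase that makes HMG-CoA, was expressed in every library at 64.5 to 149 CPM (median 98.7 CPM, n = 43). *Idi1*, the isomerase that makes dimethylallyl diphosphate, lay between 5.06 and 19.7 CPM. *Fdps*, which makes farnesyl diphosphate, lay between 0.366 and 1.84 CPM and rested on 7 to 35 counts per library. *Fdft1*, the squalene synthase, was at 64.6 to 121 CPM. *Sqle*, the squalene epoxidase, was at 30.5 to 56.1 CPM, and *Lss*, which closes the ring to lanosterol, at 30.3 to 49.3 CPM. *Insig1*, both a target and a brake of the pathway, was at 45.03 to 168 CPM. *Srebf2*, which encodes SREBP2, was at 76.1 to 186 CPM.

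Per kilobase of annotated exon, *Insig1* had a mean of 22 ± 6.07 CPM per kb (SD, n = 43 libraries), *Hmgcs1* 21.2 ± 3.67, *Fdft1* 19.7 ± 2.82 and *Srebf2* 15.8 ± 3.68. The first 3 of these differed by less than 1 SD. *Sqle* followed at 7.63 ± 1.08 CPM per kb, then *Lss* at 3.65 ± 0.386 and *Idi1* at 2.94 ± 0.921, which differed by less than the SD of *Idi1*. *Fdps* was last at 0.256 ± 0.082 CPM per kb. Some of these counts share sequence with other genes. At 95% identity or more over at least 300 bases, the longest coding transcript of *Fdps* matched transcripts of 5 other annotated genes, that of *Idi1* of 3, that of *Fdft1* of 2 and that of *Hmgcs1* of 1. The matches of *Fdft1* include 774 bases shared with *Ctsb*, which was counted at 393 to 750 CPM. How reads with several matches, or on the other strand, were counted is not given in the sources used here, so the levels of these 4 genes, *Fdps* above all, are uncertain. *Sqle*, *Lss*, *Insig1* and *Srebf2* had no such match.

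In GENCODE M21 (GRCm38), in the same order, the genes lie at chr5:28071363-28078662 (plus strand, *Insig1*, ENSMUSG00000045294), chr13:119690379-119708260 (plus strand, *Hmgcs1*, ENSMUSG00000093930), chr14:63145150-63179578 (minus strand, *Fdft1*, ENSMUSG00000021273), chr15:82147181-82205379 (plus strand, *Srebf2*, ENSMUSG00000022463). The other 4 lie at chr15:59315077-59331192 (plus strand, *Sqle*, ENSMUSG00000022351), chr10:76531588-76557138 (plus strand, *Lss*, ENSMUSG00000033105), chr13:8885501-8892451 (plus strand, *Idi1*, ENSMUSG00000058258) and chr3:89093588-89101959 (minus strand, *Fdps*, ENSMUSG00000059743).

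**Figure D1:**
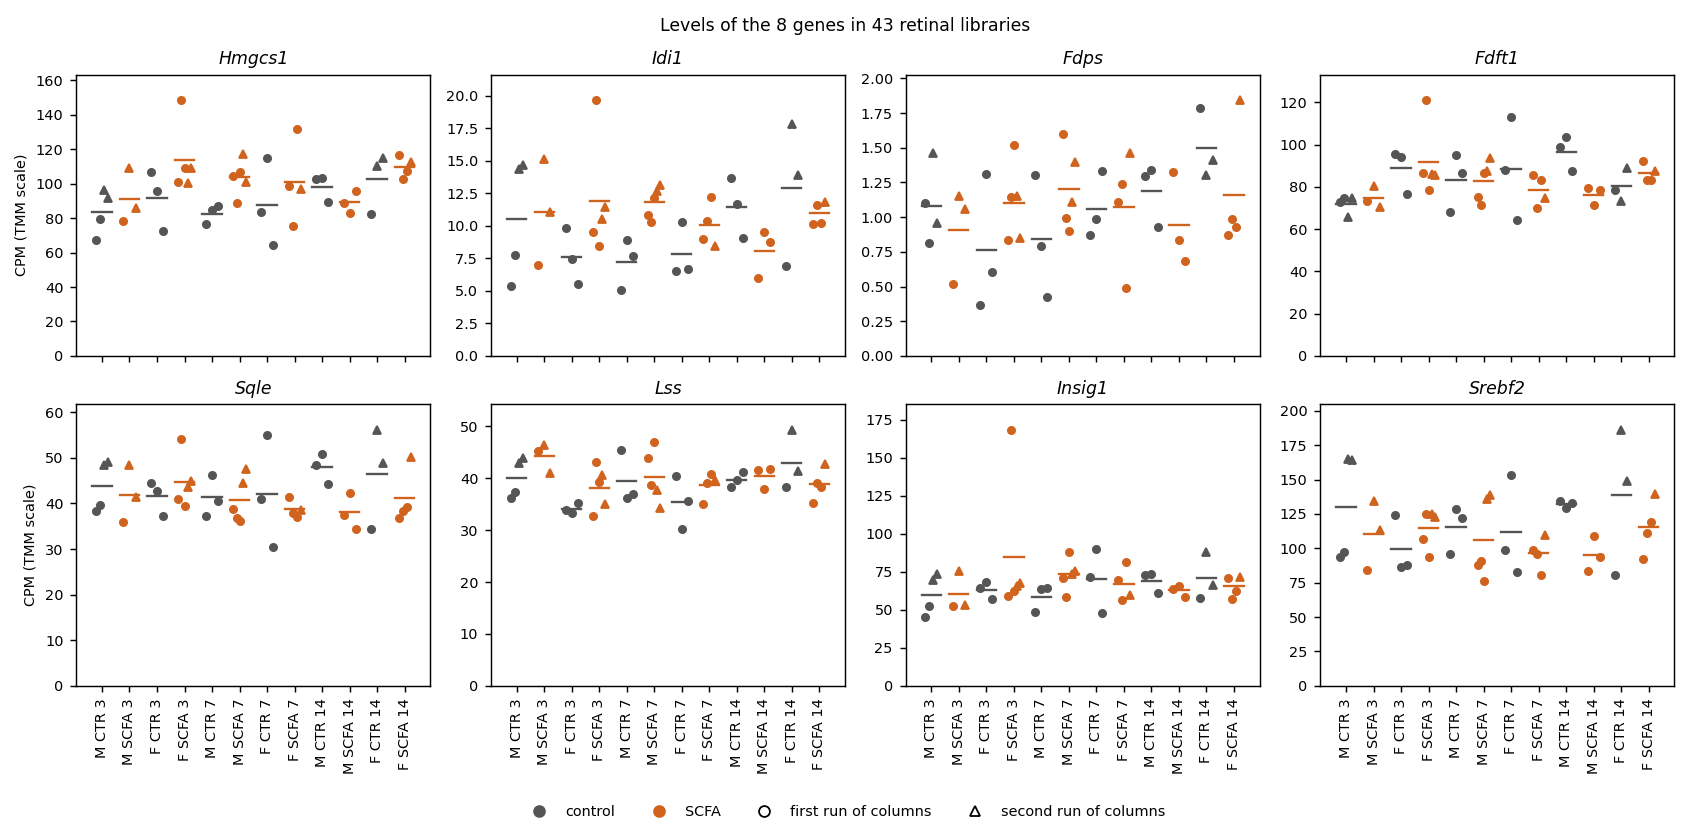
CPM (TMM scale, linear axis from 0) of each gene in each of the 43 libraries, by group. M and F are males and females, CTR and SCFA the treatments, and 3, 7 and 14 the dpl. Circles are libraries of the first run of columns, triangles of the second, and bars are group means. *Srebf2* triangles lie high in most groups, and 1 circle of female SCFA at 3 dpl stands apart for *Insig1* at 168 CPM.

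Group means varied little. The highest over the lowest mean of the 12 groups was 1.26-fold for *Sqle*, 1.29-fold for *Lss*, 1.34-fold for *Fdft1*, 1.37-fold for *Hmgcs1*, 1.44-fold for *Insig1*, 1.46-fold for *Srebf2*, 1.79-fold for *Idi1* and 1.97-fold for *Fdps*. These are ranges over groups, not tests, and the effect of the run was not removed from them. The highest means of *Hmgcs1* and *Insig1* were those of female SCFA at 3 dpl, which holds the library with lens transcripts. That library was at 168 CPM for *Insig1*, where the other 4 of its group were at 59.3 to 67.7 CPM. The ranges were not computed without it. After removal of group and run means, the SD between libraries on the log2(CPM + 1) scale ran from 0.14 for *Lss* to 0.356 for *Idi1*.

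The effect of SCFA was examined first as the mean of the 6 differences within sex and day. *Srebf2* fell by 0.25 on the log2 scale (SE 0.07, adjusted p = 0.00623), a difference in level of -15.9% with a 95% interval of the fold from 0.763 to 0.926. *Sqle* fell by 0.13 (SE 0.06, adjusted p = 0.0705), a difference in level of -8.86% with an interval of 0.843 to 0.986. These 2 of 8 were called, where 34.7% of all genes were called in this comparison, 17.7% higher and 17% lower. *Hmgcs1* had a log2 fold change of 0.14 (adjusted p = 0.134), *Idi1* of 0.14 (adjusted p = 0.413), *Insig1* of 0.07, *Lss* of 0.05, *Fdps* of -0.03 and *Fdft1* of -0.05, and none of these 6 was called. The upper end of their 95% intervals was 1.21-fold for *Hmgcs1*, 1.29-fold for *Idi1*, 1.2-fold for *Insig1*, 1.11-fold for *Lss*, 1.22-fold for *Fdps* and 1.05-fold for *Fdft1*. The median of the 8 log2 fold changes was 0.01, against 0.00 over all genes tested.

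**Figure D2:**
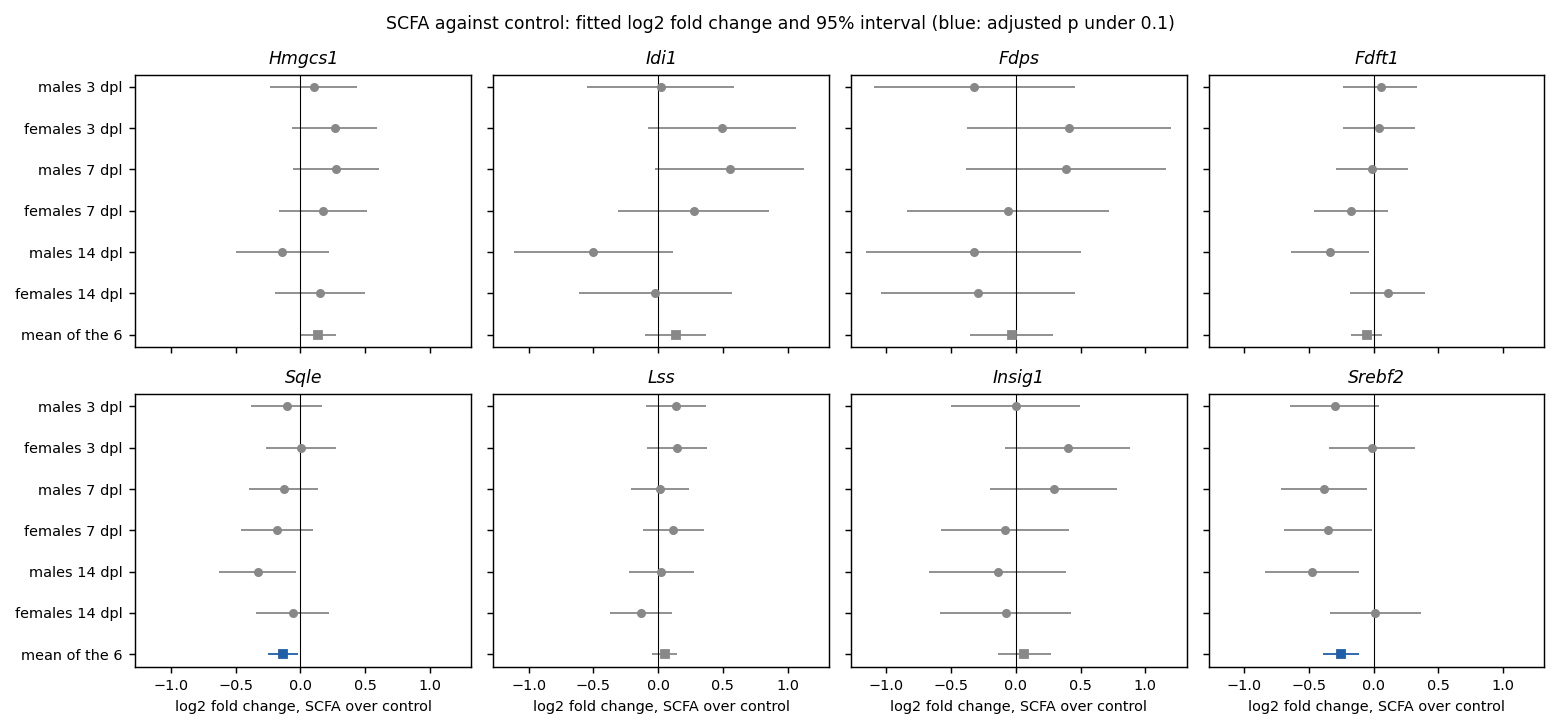
Fitted log2 fold change of SCFA over control (x axis) for each gene in each sex at each dpl, and for the mean of these 6 differences (squares), with 95% intervals. Blue marks an adjusted p under 0.1. *Srebf2* at -0.25 and *Sqle* at -0.13 are the only blue points, both for the mean.

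The libraries behind the *Srebf2* difference were as follows. In males at 14 dpl, the 3 controls were at 134, 129 and 133 CPM and the 3 SCFA libraries at 83.4, 109 and 93.3 CPM. All 3 controls thus lay above all 3 SCFA libraries. The share of all genes with such a split was not computed. In males at 7 dpl, controls were at 95.6, 128 and 122 CPM and SCFA libraries at 87.9, 90.6, 76.1, 136 and 138 CPM. The 136 and 138 CPM, above all controls, are the 2 libraries of the second run, and the other 3 SCFA libraries lay below all controls. In females at 7 dpl, controls were at 99.1, 153 and 82.6 CPM and SCFA libraries at 98.9, 95.5, 80.7 and 110 CPM. The 153 CPM is the library labelled female with Y-linked counts.

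In males at 3 dpl, *Srebf2* controls were at 93.4, 97.6, 165 and 164 CPM and SCFA libraries at 84.2, 134 and 114 CPM. In females at 3 dpl, controls were at 124, 86.3 and 87.8 CPM and SCFA libraries at 106, 125, 93.4, 125 and 122 CPM. In females at 14 dpl, controls were at 80.4, 186 and 149 CPM and SCFA libraries at 92.5, 111, 119 and 139 CPM. In each of these 3 strata the groups overlap, and the higher values are mostly those of the second run. The fitted differences were -0.30 in males and -0.01 in females at 3 dpl, -0.38 and -0.35 at 7 dpl, and -0.47 and 0.01 at 14 dpl, all on the log2 scale. Their adjusted p-values were 0.535, 0.983, 0.109, 0.305, 0.123 and 1 in the same order, and none was called.

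The call on *Srebf2* depended on how differences between libraries were modelled. Without the block for the run of columns it had a log2 fold change of -0.18 (adjusted p = 0.196), and among the first run alone of -0.14 (adjusted p = 0.268). With the mitochondrial share described below as a covariate, which was added after the data were seen, the log2 fold change was -0.08 (adjusted p = 0.405). *Sqle* was not called in the same 3 fits either, with log2 fold changes of -0.10, -0.08 and -0.03 and adjusted p-values of 0.297, 0.506 and 0.752. With the covariate, *Hmgcs1* (0.20, adjusted p = 0.0674) and *Idi1* (0.35, adjusted p = 0.0378) were called higher instead, and *Idi1* was also called in the first run alone (0.33, adjusted p = 0.0844). Of all genes, 25.9% were called with the covariate and 28.5% in the first run alone. Without female control replicate 2 at 7 dpl, *Srebf2* stayed called (-0.20, adjusted p = 0.0151) and *Sqle* did not (-0.10, adjusted p = 0.163), while *Hmgcs1* was called (0.18, adjusted p = 0.0432). Without the library with lens transcripts both stayed called, *Srebf2* at -0.28 (adjusted p = 0.00189) and *Sqle* at -0.16 (adjusted p = 0.0158). With 1 library left out in turn, 5683 to 6814 of all genes were called for this mean, against 6317 with all libraries.

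*Srebf2* itself was higher in the second run of columns than in the first, by 0.55 on the log2 scale (SE 0.09, adjusted p = 7e-06), and so were *Idi1* by 0.40 (adjusted p = 0.0343) and *Sqle* by 0.26 (adjusted p = 0.00372). These 3 of 8 compare with 52% of all genes called between the runs, 25.7% of all genes higher in the second, in a comparison added after the data were seen. The other 5 had positive values of 0.01 to 0.30 and were not called. The share of counts on mitochondrially encoded mRNAs also differed between the runs, at 4.71 to 14.8% in the first and 2.5 to 4.57% in the second, with no overlap.

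Within each run, *Srebf2* was lower where the mitochondrial share was higher. Over the 31 libraries of the first run, Pearson's r between the share and log2 CPM was -0.65 (adjusted p = 0.00056 by permutation) and Spearman's rho was -0.76 (adjusted p = 0.00016 by permutation). Over the 12 of the second run, r was -0.97 (adjusted p = 0.00016 by permutation) and rho -0.95 (adjusted p = 4e-04 by permutation). Without the 2 libraries farthest from the median share, r was -0.68 and -0.95. *Sqle* gave r of -0.46 (adjusted p = 0.0308 by permutation) and rho of -0.59 (adjusted p = 0.00248) in the first run, and r of -0.86 (adjusted p = 0.00144 by permutation) and rho of -0.92 (adjusted p = 0.00048) in the second, and without the 2 farthest libraries r was -0.55 and -0.79. *Idi1* gave r of -0.86 (adjusted p = 0.00144 by permutation) and rho of -0.78 (adjusted p = 0.0126) in the second run alone, and r of -0.02 and rho of -0.21 in the first. *Insig1* passed by r in the second run (-0.67, adjusted p = 0.0383 by permutation; rho -0.62, adjusted p = 0.0766), and its r fell in size to -0.48 without the 2 farthest libraries. The 16 relations (8 genes in 2 runs) were two-sided and adjusted together. The relation to the share was not computed for other genes, so these values do not set *Srebf2* or *Sqle* apart from them. *Hmgcs1* (r of 0.04 and -0.15), *Fdps* (0.23 and -0.05) and *Lss* (0.35 and -0.51) had adjusted p-values of at least 0.12 for r, and *Fdft1* had r of -0.33 and 0.29, with adjusted p-values of 0.133 and 0.523. Mitochondrial counts are part of the library total, and both treatments are present in each run. In the second run the treatments were separated on both axes. Control libraries there had shares of at most 3.24% and *Srebf2* of at least 149 CPM. SCFA libraries there had shares of at least 3.73% and *Srebf2* of at most 139 CPM. The relation in that run and the difference between the treatments cannot be told apart. In both runs the permutations were made over all groups, so differences by sex, treatment and day enter these p-values. The relation within groups was not tested in the first run either.

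**Figure D3:**
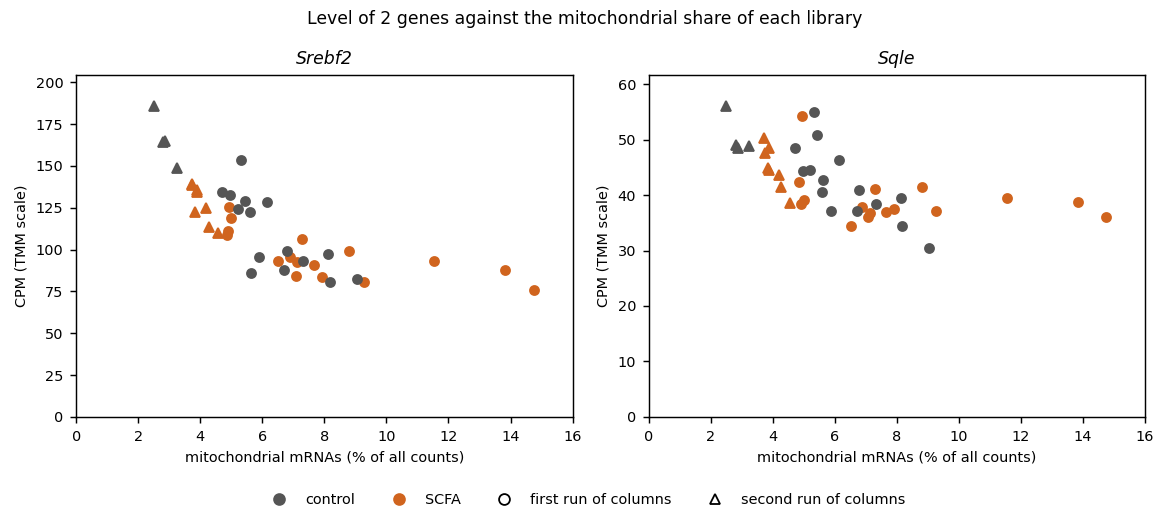
*Srebf2* and *Sqle* level (CPM, TMM scale, axis from 0) against the share of all counts on mitochondrial mRNAs (%) in each library. Circles are the first and triangles the second run of columns, grey is control and orange is SCFA. *Srebf2* falls from 186 CPM at a share of 2.5% to 76.1 CPM at 14.8%.

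The mitochondrial share moved with SCFA in some strata. Over both runs, its mean was 8.77% with SCFA against 5.87% in controls in males at 7 dpl, and 6.43% against 5.04% in males at 14 dpl. In females at 7 dpl it was 7.38% against 7.05%, and at 14 dpl 5.18% against 4.64%. At 3 dpl it was 5.07% against 5.28% in males and 6.35% against 5.84% in females. Within the first run alone, male SCFA libraries at 7 dpl were at 13.8, 7.65 and 14.8%, and female SCFA libraries at 8.80, 6.89 and 9.26%, against the same control means. In females at 14 dpl the direction was the opposite there, with SCFA libraries at 7.12, 4.89 and 4.99% and the 1 control at 8.17%. Both male groups at 14 dpl are wholly of the first run. The part of the mitochondrial share in the *Srebf2* difference was not tested beyond the fit with it as a covariate.

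The 8 genes were compared within each sex and day, and none was called in any of these 6 strata. The share of all genes called was 0.022% in males and 8.11% in females at 3 dpl, 22.2% in males and 0.643% in females at 7 dpl, and 7.13% in males and 0% in females at 14 dpl. In females at 14 dpl, where edgeR called 0 genes, 529 genes (2.91%) had an unadjusted p under 0.05, and none of the 8 was among them. At this unadjusted limit, *Srebf2* passed in males and in females at 7 dpl, and *Srebf2*, *Sqle* and *Fdft1* passed in males at 14 dpl, where 29.4%, 15.8% and 21.2% of all genes did. None of the 8 passed it at 3 dpl, where 10.9% of genes did in males and 21.5% in females. DESeq2 called *Srebf2* in males at 14 dpl (-0.46, adjusted p = 0.0991) and none of the 8 in the other strata.

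In males at 7 dpl, 5 of the 8 genes were above 0 and 3 below, and the smallest adjusted p was 0.109, for *Srebf2*. The 8 log2 fold changes were 0.55 for *Idi1* (SE 0.28, adjusted p = 0.189), 0.29 for *Insig1*, 0.28 for *Hmgcs1*, 0.39 for *Fdps*, 0.02 for *Lss*, -0.01 for *Fdft1*, -0.13 for *Sqle* and -0.38 for *Srebf2*. For *Hmgcs1* the 5 SCFA libraries (105, 89.0, 107, 117 and 101 CPM) all lay above the 3 controls (76.4, 84.7 and 87.1 CPM), and for *Idi1* the 5 SCFA libraries (10.9, 10.3, 12.2, 12.7 and 13.2 CPM) lay above the 3 controls (5.06, 8.92 and 7.67 CPM). The share of all genes without overlap was not computed, and 22.2% of all genes were called in this stratum. With the mitochondrial share as a covariate, *Idi1* had a log2 fold change of 1.05 (adjusted p = 0.0192) and *Insig1* of 0.65 (adjusted p = 0.0994) in this stratum, so that 2 of 8 were called. The share of all genes called in that fit is not given here, so the 2 cannot be set against it. The mitochondrial share was 5.59 to 6.13% in these controls and 3.74 to 14.8% with SCFA. These 2 values thus rest on shares beyond the range of the controls. Myelin markers varied widely in these libraries, at 72.0, 300.3 and 959 summed CPM of 10 genes in the controls and 91.3, 733, 141, 61.6 and 78.2 in the SCFA libraries, and 8 Müller glia genes summed to 3495 to 4463 CPM in the controls and 4664 to 9099 CPM with SCFA. Rod genes summed to 75250 to 78340 CPM in the controls but to 60880 and 49990 CPM in SCFA replicates 1 and 3, which also had the highest mitochondrial shares of all libraries. The part of these markers in the *Hmgcs1* and *Idi1* values was not tested. *Srebf2* was called in this stratum without male control replicate 1 (-0.50, adjusted p = 0.0639). With 1 library left out in turn, 2161 to 4858 genes were called in this stratum, against 4047 with all libraries.

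In males at 14 dpl the values of 7 of the 8 genes lay below 0, and the median log2 fold change of the 8 was -0.33 against 0.01 over all genes. None was called. *Fdft1* controls were at 98.7, 103 and 87.4 CPM and SCFA libraries at 79.3, 71.4 and 78.6 CPM (log2 fold change -0.34, SE 0.15, adjusted p = 0.19). *Sqle* controls were at 48.5, 50.9 and 44.3 CPM and SCFA libraries at 37.4, 42.4 and 34.5 CPM (-0.33, SE 0.14, adjusted p = 0.184). For *Srebf2*, *Fdft1* and *Sqle* the 2 groups did not overlap. The share of all genes without overlap was not computed, and 21.2% of all genes had an unadjusted p under 0.05 here by edgeR. The lack of overlap is therefore only a description of these libraries. *Idi1* had controls at 13.7, 11.7 and 9.08 CPM and SCFA libraries at 5.99, 9.54 and 8.79 CPM, which overlap (-0.50, SE 0.30, adjusted p = 0.349). *Hmgcs1* (-0.14), *Insig1* (-0.14) and *Fdps* (-0.33) were also negative, and *Lss* was at 0.03. None of the 6 libraries is from the second run.

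*Srebf2* was called without male SCFA replicate 2 (-0.58, adjusted p = 0.0815), in a fit where 2081 genes were called, against 1298 with all libraries. In a fit of these 6 libraries alone, which are those the study used, *Srebf2* (-0.47, adjusted p = 0.0179), *Fdft1* (-0.33, adjusted p = 0.0398) and *Sqle* (-0.32, adjusted p = 0.0616) were called. The share of all genes called in that fit is not given here, so these calls cannot be set against it. With the mitochondrial share as a covariate, *Srebf2* had a log2 fold change of -0.32 (adjusted p = 0.204) in males at 14 dpl. Other markers moved with the same 6 libraries. The summed level of 10 microglial genes was 89.0 to 91.7 CPM in the controls and 49.5 to 74.7 CPM with SCFA. That of 10 pigment epithelium genes was 884 to 1193 against 599 to 841 CPM, and that of 8 Müller glia genes 4695 to 4771 against 4115 to 4350 CPM. Rod genes summed to 68070 to 79580 CPM in controls and 77140 to 92200 CPM with SCFA. No marker of these 4 lists was at 0 in any library (*Rlbp1* is in 2 of them), and their part in the *Srebf2*, *Fdft1* and *Sqle* values was not tested.

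Females at 3 dpl had 7 of 8 genes above 0 with SCFA, with a median of 0.21, and this rested on 1 library. Without female SCFA replicate 2, the one with lens transcripts, the median was -0.03, and 76 genes were called where 1476 were with it. That library was at 168 CPM for *Insig1* where the other 4 SCFA libraries were at 59.3 to 67.7 CPM, at 19.7 against 8.42 to 11.5 CPM for *Idi1*, at 149 against 100.5 to 109 CPM for *Hmgcs1*, and at 121 against 78.7 to 86.4 CPM for *Fdft1*. These 4 of the 8 were above all of the other 42 libraries, as were 9 of 49 further genes of sterol and fatty acid metabolism and 11.1% of all genes with a mean of 5 CPM or more. *Sqle*, *Lss*, *Fdps* and *Srebf2* were not. The library also held 3025 summed CPM of 10 pigment epithelium genes, where the other 4 held 615.5 to 1982 CPM, and the part of these cells and of lens in the values was not tested. With the mitochondrial share as a covariate, *Idi1* was called in females at 3 dpl (0.73, adjusted p = 0.058). The share of all genes called in that fit is not given here.

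The count of 4 depends on scaling, because lens transcripts took 17.7% of the counts of this library and the TMM factor raised all its other genes. On plain totals, *Insig1* alone of the 8 (118 CPM against at most 94.7) lay above all other libraries, beside 2 of the 49, *Scd2* and *Fads1*, and 3.22% of all genes. The median gene was then 0.52 lower in this library than in its group on the log2 scale, and relative to that shift *Insig1* was 1.42 higher, *Idi1* 0.97, *Fdft1* 0.55, *Hmgcs1* 0.53, *Sqle* 0.39, *Fdps* 0.33, *Lss* 0.27 and *Srebf2* 0.20. *Scd2*, a stearoyl-CoA desaturase, was 1.76 higher and *Cyp51*, the lanosterol demethylase, 0.72 higher on the TMM scale. *Scd2*, *Fads1* and *Cyp51* were named here after their values were seen.

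**Figure D4:**
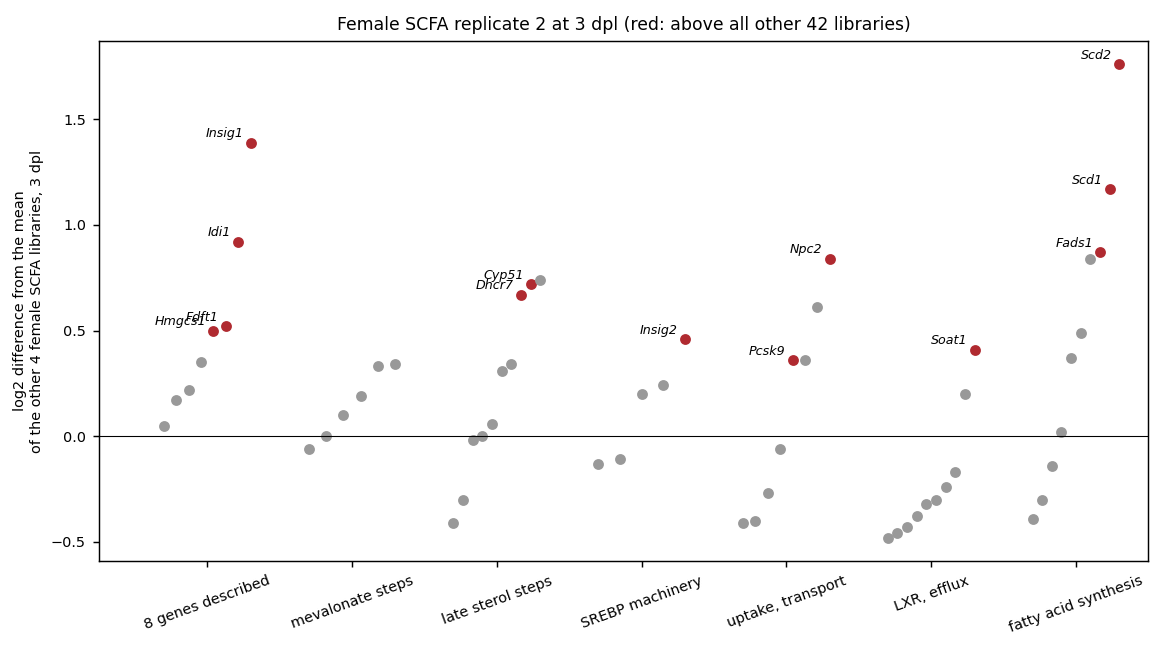
Log2 difference of female SCFA replicate 2 at 3 dpl from the mean of the other 4 libraries of its group (y axis, log2(CPM + 1), TMM scale), for the 8 genes and 49 further genes by list. Red points lie above all other 42 libraries. *Insig1* at 1.39 and *Scd2* at 1.76 are the highest.

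In females at 7 dpl the 8 log2 fold changes ran from -0.35 for *Srebf2* to 0.27 for *Idi1*, with a median of -0.07. Without female control replicate 3 at 7 dpl the median was -0.15, and *Srebf2* (-0.53, adjusted p = 0.0736) and *Sqle* (-0.37, adjusted p = 0.0981) were called. In that fit 2051 genes were called in this stratum, against 117 with all libraries. Without replicate 2, the library with Y-linked counts, the median was 0.04, *Srebf2* was at -0.06 (adjusted p = 0.942) and *Sqle* at 0.05 (adjusted p = 0.949). In females at 14 dpl they ran from -0.29 for *Fdps* to 0.15 for *Hmgcs1*, with a median of -0.04. Males at 3 dpl had 4 values above and 4 below 0, from -0.32 for *Fdps* to 0.14 for *Lss*. The response to SCFA was then compared between the sexes as an interaction. None of the 8 was called at 7 dpl or at 14 dpl, and 0% of all genes was called at either day. DESeq2 called none of the 8 either. At an unadjusted p under 0.05, 1332 genes (7.32%) at 7 dpl passed, none of the 8 among them, and 1822 (10%) at 14 dpl. The median difference of the 8, males less females, was 0.14 at 7 dpl and -0.28 at 14 dpl, and that at 7 dpl was -0.02 without the library labelled female with Y-linked counts. *Fdft1* was the one of the 8 with an unadjusted p under 0.05 at 14 dpl (-0.45, SE 0.21, adjusted p = 0.488), and *Srebf2* was at -0.49 (SE 0.25, adjusted p = 0.503). The lower values in males and those near 0 in females at 14 dpl are therefore not shown to differ.

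Sex was also compared in controls. None of the 8 was called at 3, 7 or 14 dpl, where 0.0495%, 0.0275% and 4.65% of all genes were called, and DESeq2 called none of the 8 either. At an unadjusted p under 0.05, *Fdft1* passed at 3 dpl and none of the 8 at 7 or 14 dpl, where 5.17%, 3.81% and 18.1% of all genes did. The values of the 8, males over females, ran from -0.31 for *Fdft1* to 0.35 for *Fdps* at 3 dpl, from -0.33 for *Fdps* to 0.16 for *Lss* at 7 dpl, and from -0.15 for *Fdps* to 0.35 for *Srebf2* at 14 dpl. At 7 dpl their median was -0.09, and 0.12 without the library labelled female with Y-linked counts. That library had the highest *Srebf2* (153 CPM), *Fdft1* (113 CPM) and *Sqle* (54.9 CPM) of the female controls at that day.

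Time after laser was compared in controls as the mean of both sexes. From 3 to 7 dpl, 6 of the 8 values were above 0, from -0.13 for *Idi1* to 0.16 for *Srebf2*, with a median of 0.06 that became -0.015 without the library labelled female with Y-linked counts. From 7 to 14 dpl, all 8 were above 0, with a median of 0.12 (0.21 without that library) against -0.01 over all genes, and *Idi1* was the largest at 0.54 (SE 0.22, unadjusted p = 0.0212 and adjusted p = 0.472 by edgeR). None was called in either step, and 0% of all genes was. At an unadjusted p under 0.05, 1191 genes (6.55%) passed for the first step and 1701 (9.35%) for the second, with none and 1 of the 8. DESeq2 called none of the 8 in either step. Without a filter on low counts *Idi1* was called from 7 to 14 dpl (adjusted p = 0.0823).

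Over all libraries, 6 of the 8 genes varied together. After removal of group and run means, the 15 pairs among *Hmgcs1*, *Sqle*, *Idi1*, *Insig1*, *Fdft1* and *Srebf2* had Pearson's r from 0.49 to 0.84 over the 43 libraries, with a median of 0.71. Without the library with lens transcripts r was 0.34 to 0.82, with a median of 0.63. Within the second run alone, r ran from -0.26 to 0.99 with a median of 0.50. Groups of that run are pairs or single libraries. With group means removed, r there rests on few independent differences and not on 12 libraries. The closest pair was *Sqle* and *Srebf2* (0.84, and 0.82 without that library), followed by *Hmgcs1* and *Insig1* (0.80 in both). *Lss* had r from -0.25 to 0.29 in its 7 pairs over all libraries, and *Fdps* from -0.29 to 0.11. In the second run, with the same limit, *Lss* had r from -0.27 to 0.78 with a median of 0.55, the highest being with *Srebf2*. *Fdft1* there had r of -0.26 with *Srebf2* and 0.27 with *Hmgcs1*. *Fdps* rested on few counts, while *Lss* had 512 to 962 counts per library. The 6 genes were grouped after their correlations were seen, all values of a library share its depth, scaling and tissue makeup, and the correlations are given as a description.

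**Figure D5:**
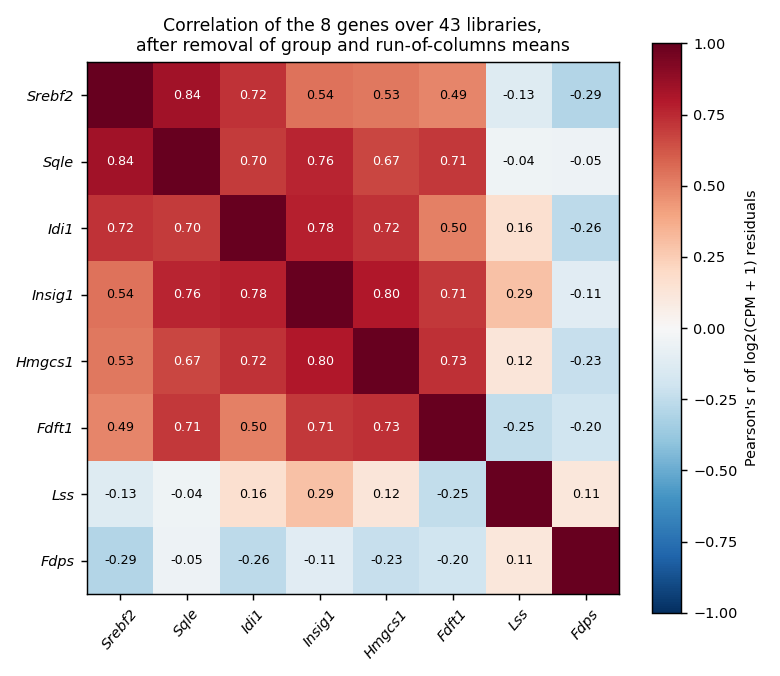
Pearson's r between each pair of the 8 genes over 43 libraries, on residuals of log2(CPM + 1) after group and run means were removed (colour scale -1 to 1). *Srebf2*, *Sqle*, *Idi1*, *Insig1*, *Hmgcs1* and *Fdft1* form a block with r of 0.49 to 0.84, and *Lss* and *Fdps* lie outside it.

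The genes whose levels most resembled the mean standardized level of the 8 were then listed among 11694 genes with a mean of 5 CPM or more, with the effect of the run removed. The first 10 included *Lsamp* (r = 0.86), *Dync1i1* (0.86), *Cap2* (0.85), *Reep1* (0.84), *Ctnna2* (0.82), *Scd2* (0.80), *Gng2* (0.79), *Ankrd46* (0.79) and *Cyp51* (0.79), over 43 libraries. *Lsamp* encodes a neuronal adhesion molecule, *Dync1i1* a dynein chain and *Cap2* an actin regulator, while *Scd2* and *Cyp51* belong to lipid synthesis. The first 10 shared 4 genes with the list made without the library with lens transcripts, and 8 with the list made without removal of the run.

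The 8 genes were set beside 49 further genes of the pathway and its neighbours, all of which passed the filter on low counts. For the mean SCFA effect, 9 of the 49 were called higher and 13 lower, where 34.7% of all genes were called, and their median log2 fold change was -0.06. Of 6 other genes of the mevalonate steps, 2 were higher and 1 was lower. Of 10 genes of the late sterol steps, 1 was higher and 2 were lower. Of 5 genes of the SREBP machinery, 2 were higher and 3 lower, so all 5 were called. Of these, *Srebf1* and *Mbtps1*, both lower, were not called with the mitochondrial share as a covariate (adjusted p = 0.475 and 0.318) or without the block (0.225 and 0.381), nor was *Mbtps1* in the first run alone (0.18), and they were named after their values were seen. Of 8 genes of sterol uptake and transport, 1 was higher and 2 were lower, of 10 genes of the liver X receptors and efflux 1 was higher and 2 were lower, and of 10 genes of fatty acid synthesis 2 were higher and 3 lower. The pathway thus held called genes in both directions in every list. These calls are for the mean over strata with all libraries. Without the library with lens transcripts, 9 of the 49 were called higher and 17 lower for that mean, where 36.7% of all genes were called. The 22 called with all libraries kept their call and direction there. Among the 49 genes, 6 were called higher and 8 lower in males at 7 dpl, where 22.2% of all genes were called. There were 2 and 3 in males at 14 dpl (7.13% of all genes), and 1 and 2 in females at 3 dpl (8.11%). None was called in males at 3 dpl or in females at 7 or 14 dpl, where at most 0.643% of all genes were.

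*Scap*, which escorts SREBPs out of the endoplasmic reticulum, fell by 0.34 on the log2 scale with SCFA (SE 0.05, adjusted p = 1.14e-05). *Insig2*, which retains SCAP there, rose by 0.22 (adjusted p = 0.00371), and *Mbtps2*, the site-2 protease that frees active SREBP, rose by 0.24 (adjusted p = 0.00405). *Acat2*, the cytosolic thiolase at the entry of the pathway, rose by 0.34 (adjusted p = 1.23e-05), and *Ggps1*, which makes geranylgeranyl diphosphate from the product of *Fdps*, rose by 0.23 (adjusted p = 8.21e-05). *Scarb1*, the HDL receptor, fell by 0.33 (adjusted p = 4.76e-05). *Mylip*, which marks the LDL receptor for degradation, rose by 0.23 (adjusted p = 0.00223). *Elovl6*, a fatty acid elongase, rose by 0.34 (adjusted p = 0.00102), while *Fasn*, the fatty acid synthase, fell by 0.32 (adjusted p = 0.00285) and *Acss2*, which makes acetyl-CoA from acetate, fell by 0.18 (adjusted p = 0.00192). These are the 10 with the smallest adjusted p.

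Of these 10, 9 were also called in the same direction with the mitochondrial share as a covariate, without the block and in the first run alone. The 10 were picked by their adjusted p, and these fits use the same libraries, so a kept call is no separate support. The share of all called genes that kept their call is not given here. *Fasn* was not called with the covariate (-0.17, adjusted p = 0.16) or in the first run (-0.17, adjusted p = 0.174). *Srebf2* and *Sqle* also lost their calls in both of these fits, as given above. With the covariate, 14 of the 49 were called higher and 6 lower, and 12 of the 22 called without it kept their call and direction, with 25.9% of all genes called.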

How the data were processed

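The authors deposited raw read counts per gene for 43 retinal libraries (paired-end reads of 150 bases). Per the labels, the build was mm10 and DESeq2 was used. The aligner, counter, annotation and strand setting are not given in the sources used here. The 8 genes and all lists were chosen with earlier results of these data known.

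Counts were filtered with filterByExpr, scaled by TMM and fitted once over all 12 groups with the run of columns as a block in edgeR 4.0.16 (R 4.3.3). Its quasi-likelihood test gave the p-values, other than those from DESeq2 and from permutations. The p-values of this fit were adjusted over all 18197 genes tested (Benjamini-Hochberg), and the limit was the study's adjusted p of 0.1. The study's further limit, an absolute log2 fold change over 1, was an alternative. Symbols came from a table of gene identifiers (123 genes had none), and lengths came from GENCODE M21. Transcripts were compared with blastn 2.17.0. Correlations were tested with 100000 permutations in numpy 2.4.6 (Python 3.11.15). Replicates are separate pools of mice, and the closest replicate pair differed beyond sampling noise (chi-square per gene 3.59, of 59 pairs). Same-numbered libraries of different groups did not deviate together (mean correlation 0.02), so numbers did not pair them. Intervals cover the spread between libraries.

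Alternatives were DESeq2 1.42.0, its size factors, no block, no filter, the first run alone, the study's libraries, a replicate block, other thresholds, and each library left out in turn. A covariate for the mitochondrial share and leaving out the libraries with lens and Y-linked transcripts together, or that with lens transcripts alone, were added after the data were seen. The genes named are the 8 genes, the 10 others of the lists with the smallest adjusted p, and the 10 with the most similar pattern, of which 1 is not reported here. Tested on simulated data for males at 7 dpl (17909 genes), the fit called 46% of changes of 0.5, 94% of changes of 1 and 100% of changes of 2 on the log2 scale.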

Additional observations from a re-analysis of the deposited data

Results flagged for a closer look

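Groups of 4 or 5 libraries were checked for a single library whose gap to the nearest other one was large against the range of its group (Dixon's 95% value), in 40 sets of a gene and a group. Chance alone gives about 1 in 20. There were 5, and 4 of them were the same library, female SCFA replicate 2 at 3 dpl. It was at 149 CPM for *Hmgcs1* (the others 100.5 to 109 CPM), 19.7 CPM for *Idi1* (8.42 to 11.5 CPM), 168 CPM for *Insig1* (59.3 to 67.7 CPM) and 121 CPM for *Fdft1* (78.7 to 86.4 CPM). The gap was 0.923 of the range for *Insig1* and 0.728 for *Idi1*, the smallest of the 4. The other was female SCFA replicate 4 at 14 dpl, with 1.84 CPM of *Fdps* where the other 3 libraries had 0.869 to 0.983 CPM.

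Lens genes lie outside the comparisons of the report, and 10 of them summed to 251900 CPM in female SCFA replicate 2 at 3 dpl, where the control libraries held 0.737 to 402 CPM. The part of the lens transcripts in the levels of *Insig1*, *Hmgcs1*, *Idi1* and *Fdft1* was not tested.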

How the results depend on the processing

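The median log2 fold change of the 8 genes moved by less than 1 SD between libraries (0.198) under most alternatives. It moved further for SCFA in females at 3 dpl, to -0.027 without the library with lens transcripts and -0.026 without both that library and female control replicate 2 at 7 dpl, and for males over females in controls at 7 dpl, to 0.122 without the latter and 0.123 without both. With each library left out in turn, these 2 medians ran from -0.027 to 0.249 and from -0.216 to 0.122. With the libraries the study used and no block, the median was 0.131 for SCFA in females at 7 dpl and -0.358 at 14 dpl, 0.223 for males over females in controls at 7 dpl, and -0.081 and 0.122 for the difference in response at 7 and 14 dpl. At 14 dpl those female controls are all of the second run and the SCFA libraries all of the first, and the effect of the run and that of SCFA cannot be told apart there. In the first run alone, the median was 0.284 for males over females in controls at 14 dpl and -0.483 for the difference in response at 14 dpl. The cause was not tested.

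With the mean SCFA effect, 2 of the 8 were called, and 0 without the block or with an absolute log2 fold change over 1, 1 without the filter, in the first run alone (*Idi1*, 0.33) or at an adjusted p under 0.05. *Srebf2* kept its call when each library was left out (-0.280 to -0.204, adjusted p 0.00156 to 0.0174), while *Sqle* lost it in 8 of 43 (-0.165 to -0.097, adjusted p 0.0129 to 0.163), which were replicates 1 and 3 of male SCFA at 3 dpl, replicate 3 of male SCFA at 14 dpl, and replicate 2 of male control at 7 and 14 dpl, replicate 2 of female control at 7 and 14 dpl and replicate 1 of female control at 3 dpl. In males at 7 dpl the count of 0 became 1 or 2 under 7 alternatives, and in males at 14 dpl 1 or 3 under 6, DESeq2 among them with 1 (*Srebf2*, adjusted p = 0.0991). With the replicate block, every median of the 8 moved by less than 0.198, 1 of 8 was called in males at 7 dpl (*Idi1*, 0.66) and 1 in males at 14 dpl (*Srebf2*, -0.48), and *Srebf2* was at -0.22 (adjusted p = 0.0105) for the mean effect. In females at 3 dpl the count of the 8 that were called became 1 under 2 alternatives, and with the libraries the study used it became 3 in females at 14 dpl and 1 for males over females in controls at 7 dpl. The shares of all genes called in these fits are not given here. The number of all genes called moved by more than 1.5 times in 79 cases and by less in 97, and with 1 library left out in 51 and 107 cases, with DESeq2 for example from 1298 to 1999 in males at 14 dpl, from 117 to 938 in females at 7 dpl and from 4 to 89 in males at 3 dpl. With 1 library left out, 11 to 2410 genes passed in females at 3 dpl (1476 with all), 0 to 2051 in females at 7 dpl (117), 0 to 2081 in males at 14 dpl (1298) and 8 to 362 for males over females in controls at 14 dpl (847). Changes of 0.5 on the log2 scale, larger than most values of the 8 genes, were called in 46% of cases on simulated data for males at 7 dpl, and other comparisons were not simulated.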
